A study of Saccharomyces cerevisiae with 20 samples.

Results

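Histone H3 density was compared along the ORFs of budding yeast between cells adapted to 1 M KCl (sample C) and cells 1 h after the KCl had been taken away (sample D), the step at which stress recovery begins. The comparison holds every ORF with usable H3 values, which were 6678 of the 6685 ORFs listed. Of the others, 6 had no values and 1 had a value above 20 in absolute size. The comparison rests on 2 of the 20 files of the series, 1 file per side. All cells were of 1 MATα strain, a BY4742 derivative whose Gcn5 carries a myc tag (MYC13-KanMX6), grown at 30 °C in YPD, so that the controls carried the tag as well. Sample A was taken in normal growth without KCl, sample B 1 h after KCl had been brought to 1 M, sample C after adaptation to KCl, sample D 1 h after return to YPD without KCl, and sample E after 2 to 3 generations of recovery. BY4742 carries deletions at HIS3, LEU2, LYS2 and URA3, so that values at those 4 genes cannot be read as H3 of the genes.

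H3 is one of the core histones around which DNA is wrapped in the nucleosome, and its ChIP signal follows how many nucleosomes occupy a stretch of DNA. Active yeast promoters typically have a nucleosome-depleted region just ahead of the transcription start, while the transcribed body is packed with nucleosomes that are partly displaced under strong transcription. High external salt activates the HOG pathway, whose kinase Hog1 induces genes for glycerol synthesis and stress defence and represses growth genes for a time. Return to ordinary medium removes that signal.

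Chromatin precipitated with an H3 antibody was hybridised to a tiling array, and the authors averaged the signal of each ORF in 9 bins upstream, 20 bins along the ORF and 9 bins downstream. The values are on a log scale whose base is not given in the sources used here, so that differences are stated in log-scale units and not as folds. Each file was set to a median of 0 over all its bins, and the H3 level of a region is the mean of its bins. The methods describe 2 independent cultures, which the files do not keep apart. There is therefore no replicate error and no test between samples C and D, and the 3 other H3 samples serve as the only yardstick of spread. The sources give the same catalogue number for the H3 and H3K18ac antibodies, and the H3 values correlated with H3K18ac over all bins with r = 0.174 in sample C and r = 0.101 in sample D. In both H3 files the ORF lay above its flanks, with mean levels of -0.424 upstream, 0.0415 in the ORF and -0.386 downstream in sample C and of -0.448, 0.0382 and -0.388 in sample D.

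The flanking windows call for a caution. The methods describe them as reaching to the middle of the intergenic region, but the profiles of neighbouring genes matched each other as windows of fixed length would. The downstream bins of convergent neighbours were laid over each other as 450 bp windows of 50 bp bins. Their H3 levels in sample C then correlated with r = 0.885 over 1197 pairs. For windows of 400 bp r was 0.632 and for 500 bp 0.675. For divergent neighbours r was 0.909 at 450 bp over 1086 pairs. A window of this length often runs into the next gene, and 49.99% of the upstream and 71.06% of the downstream windows of 5985 nuclear protein-coding genes did so. Neighbouring genes thus report the same DNA in part, and a flank value belongs to a stretch of chromosome more than to 1 gene.

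H3 was nearly the same in samples C and D at most genes. The levels of the 2 samples correlated across the 6678 ORFs with r = 0.947 upstream, 0.965 in the ORF and 0.927 downstream, values that share the array design and the probe set. The median difference, D minus C, was -0.0168 upstream, -0.00288 in the ORF and 0.000744 downstream. The middle 80% of ORFs lay between -0.198 and 0.138 upstream, between -0.0799 and 0.0780 in the ORF and between -0.206 and 0.190 downstream. The SD over ORFs was 0.166 upstream, 0.0919 in the ORF and 0.187 downstream. Samples A and E, both grown without KCl, differed more, with SDs of 0.219, 0.141 and 0.235. Among the 10 pairs of H3 samples, C and D gave the smallest SD in the ORF and the second smallest in both flanks.

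**Figure D1:**
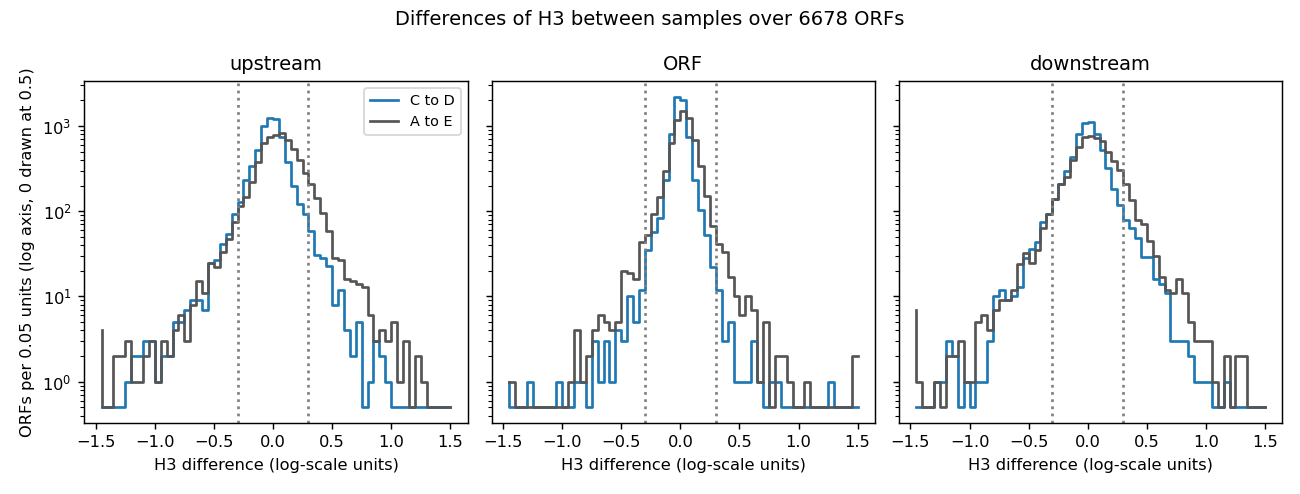
Number of ORFs (log axis, 6678 ORFs) against the H3 difference in log-scale units for the upstream window, the ORF and the downstream window, with D minus C in blue and E minus A in grey. Values beyond the axis are counted in the outermost steps, dotted lines mark -0.3 and 0.3, and the grey curve is the wider one in each panel, with an SD of 0.141 against 0.0919 in the ORF.

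Along the average gene the depleted region upstream was a little deeper in sample D. The lowest mean level lay in bin 7 of the 9 upstream bins in all 5 samples. From sample A to sample E it read -0.698, -0.632, -0.634, -0.667 and -0.593. Samples B and C were alike, sample D lay between them and sample A, and sample E was the shallowest. Upstream bins 1 to 7 were lower in sample D than in sample C by means between -0.0332 and -0.0251, while bins 8 and 9, nearest the ORF, differed by -0.00456 and -0.00532. The ORF bins differed by means between -0.0110 and 0.00234. Downstream the sign turned with distance. The first bin past the ORF was higher in sample D by 0.0451, at -0.410 against -0.455 in sample C and -0.370 in sample A, and the fifth bin was lower by -0.0275. Upstream bins outside other annotated genes were lower in sample D by a mean of -0.0285 and those inside another gene by -0.0199.

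**Figure D2:**
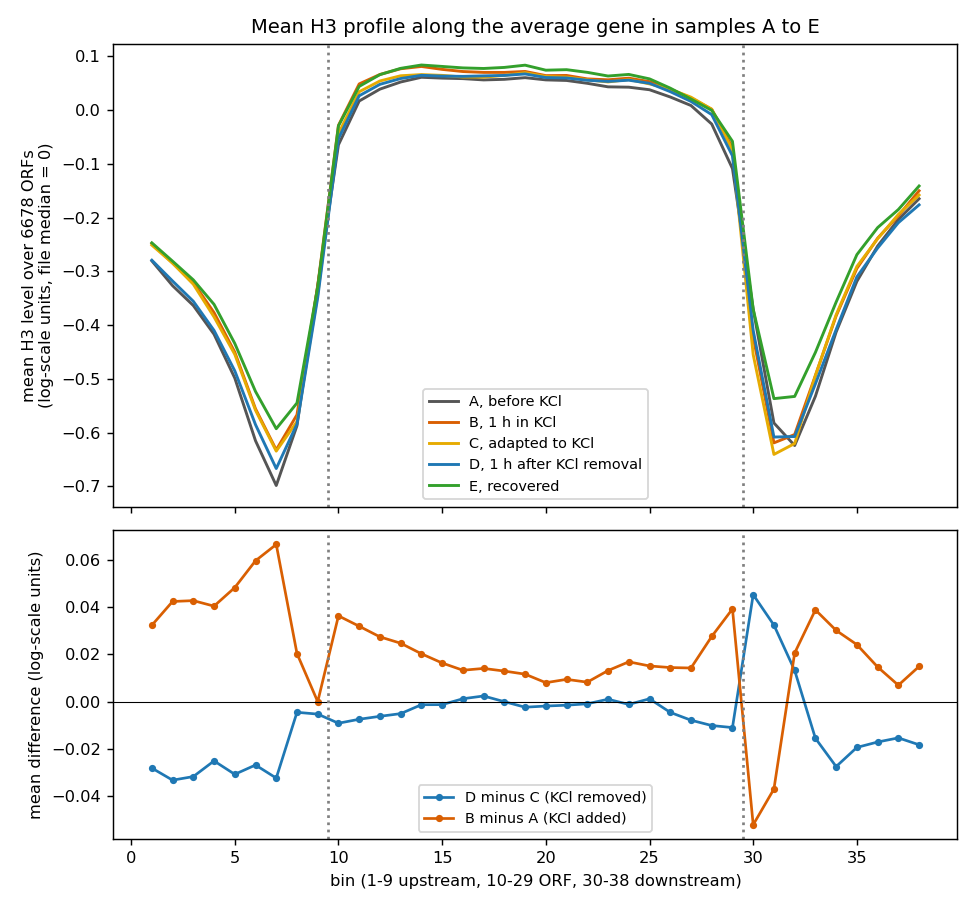
Upper panel, mean H3 level in log-scale units over 6678 ORFs for each of the 38 bins in samples A to E, with the ORF between the dotted lines. Lower panel, mean difference per bin for D minus C (KCl removed) and B minus A (KCl added): upstream of the ORF the blue points lie below 0, down to -0.0332, and the first downstream bin is 0.0451 higher in sample D.

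A difference of at least 0.3 in a region was taken as the size that counts. Upstream, 179 ORFs (2.68%) were higher in sample D by this size and 299 (4.48%) were lower. In the ORF, 30 (0.449%) were higher and 47 (0.704%) lower. Downstream, 305 (4.57%) were higher and 344 (5.15%) lower. ORFs just inside the limit upstream had differences of 0.3002 and -0.3003, and those just outside had 0.2987 and -0.2994. In all, 1121 ORFs passed the limit in at least 1 region, 80 in at least 2 and 3 in every region. From samples A to E, as many as 920, 271 and 996 ORFs passed it in either direction in the 3 regions, against 478, 77 and 649 from C to D.

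Many of these differences were narrow. A single bin supplied over 50% of the difference in 92 of the 179 upstream windows that were higher and in 131 of the 299 that were lower, and in 163 of 305 and 165 of 344 downstream. By the median of the bins in place of the mean, 45 and 101 of these upstream windows, 9 and 28 of the ORFs and 76 and 93 of the downstream windows were still past 0.3, while others passed by the median alone and brought the upstream counts to 180 higher and 362 lower. In nuclear protein-coding genes the 457 flanking windows that were higher lay at 340 separate loci and the 606 that were lower at 450. Sample D lay outside the range of all 4 other samples in 76 (1.14%) of the higher and 199 (2.98%) of the lower upstream windows, in 7 (0.105%) and 24 (0.359%) of the ORFs and in 142 (2.13%) and 239 (3.58%) of the downstream windows.

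Large differences were found where H3 was low. In the fifth of ORFs with the lowest upstream level, 12.65% were lower by 0.3 or more and 6.51% higher, with an SD of 0.255, while in the fifth with the highest level 0.674% were lower and 0.973% higher, with an SD of 0.0937. The spread in the ORF differed with gene length. The SD was 0.109 in the 2395 genes under 1 kb, 0.0552 in the 2266 of 1 to 2 kb, 0.0487 in the 798 of 2 to 3 kb and 0.0574 in the 526 longer ones, and no ORF over 2 kb passed 0.3. From sample A to sample E the SDs of these length classes were 0.175, 0.0951, 0.0721 and 0.102, again largest in the shortest genes. The number of probes behind a short ORF is not given in the sources used here. Of the ORFs past 0.3, 60% of those higher and 42.55% of those lower had a bin exactly midway between its neighbours, as an interpolated bin would be, against 8.67% of all ORFs.

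The genes named next had the largest differences in each region among nuclear protein-coding genes that overlapped no other gene, lay at least 20 kb from a chromosome end, had no midway bin in the region, differed in the same direction in at least 75% of the region's bins and had sample D outside the range of the other samples. Upstream, 136 genes met these conditions with H3 higher in sample D and 543 with H3 lower, of 4959 that met the conditions on annotation and bins. Since sample D chose them, their values are a description.

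The upstream window with the largest loss among them was that of CCW12, which encodes an abundant mannoprotein of the cell wall. From sample A to sample E it read -2.44, -2.62, -2.29, -3.48 and -3.38, a difference of -1.20 from C to D. H3 was low there in all samples and lowest in samples D and E, which did not overlap with samples A, B and C. The loss was broad, with 8 of 9 bins lower and a median over bins of -1.20. The 3 bins inside the neighbouring ORF YLR111W differed by -1.90 and the others by -0.848. YLR111W and YLR112W, small ORFs that lie toward HOG1, were looked at after the values of CCW12 were known. The ORF of YLR111W had -2.26, -2.84, -2.09, -3.36 and -3.68 in samples A to E, and that of YLR112W was lower in sample D by -0.715. HOG1, the stress kinase gene further along, had an upstream difference of -0.178 and an ORF difference of -0.0199. Only 1 of the 9 upstream bins of HOG1 was higher in sample D, bin 8 at 1.308. By the median of the bins the upstream difference of HOG1 was -0.453. By these values the loss took in the DNA between CCW12 and HOG1 and reached the upstream window of HOG1. It was smaller there than upstream of CCW12, by the mean and by the median of the bins.

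RSN1, a membrane protein gene named for its part in salt tolerance, had upstream levels of -1.59, -1.27, -0.851, -1.75 and -1.36 in samples A to E. All 9 bins were lower in sample D than in sample C, by -0.898 on average, and sample C was the highest of the 5 samples. CHO2, which encodes the first methyltransferase of phosphatidylcholine synthesis from phosphatidylethanolamine, had -1.49, -0.883, -0.708, -1.67 and -1.18. Samples B and C, from KCl medium, lay above the 3 others, but bin 6 alone differed by -4.75 and carried over 50% of the difference of -0.961. TAN1, a gene for tRNA cytidine acetylation, had -0.651, -1.01, -0.743, -1.82 and -0.882, with sample D apart from the rest. Its difference of -1.07 came from the 5 bins that lie inside the neighbouring gene SEC15, at -1.69, rather than from the intergenic bins, at -0.299. MRM1, a mitochondrial rRNA methyltransferase gene, had -0.252, -0.574, -0.268, -1.18 and -0.401. It lies next to HIS3, one of the genes deleted in BY4742, and its difference of -0.916 was -1.61 in the bins between both genes.

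The upstream windows with higher H3 in sample D were led by MRN1, which encodes an RNA-binding protein. Its levels were -0.712, -0.815, -1.34, -0.372 and -0.578 in samples A to E, and sample C lay further below the others than sample D lay above them. The difference was 0.971 by the mean of the bins and 0.390 by their median. FAS1, the gene of the fatty acid synthase beta subunit, had -0.493, -0.550, -1.17, -0.285 and -0.688, a difference of 0.884 in which bin 3 alone stood at 5.498. CTL1, an RNA triphosphatase gene, had -1.14, -1.51, -1.72, -0.809 and -1.33, a difference of 0.907. In CTL1 the samples from KCl medium were the 2 lowest. YDC1, a dihydroceramidase gene, had -1.31, -1.25, -1.32, -0.602 and -1.41, so that sample D stood above the 4 others, 0.721 above sample C. MED2, a Mediator subunit gene, had -1.20, -1.14, -1.55, -0.880 and -0.986, a difference of 0.670.

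**Figure D3:**
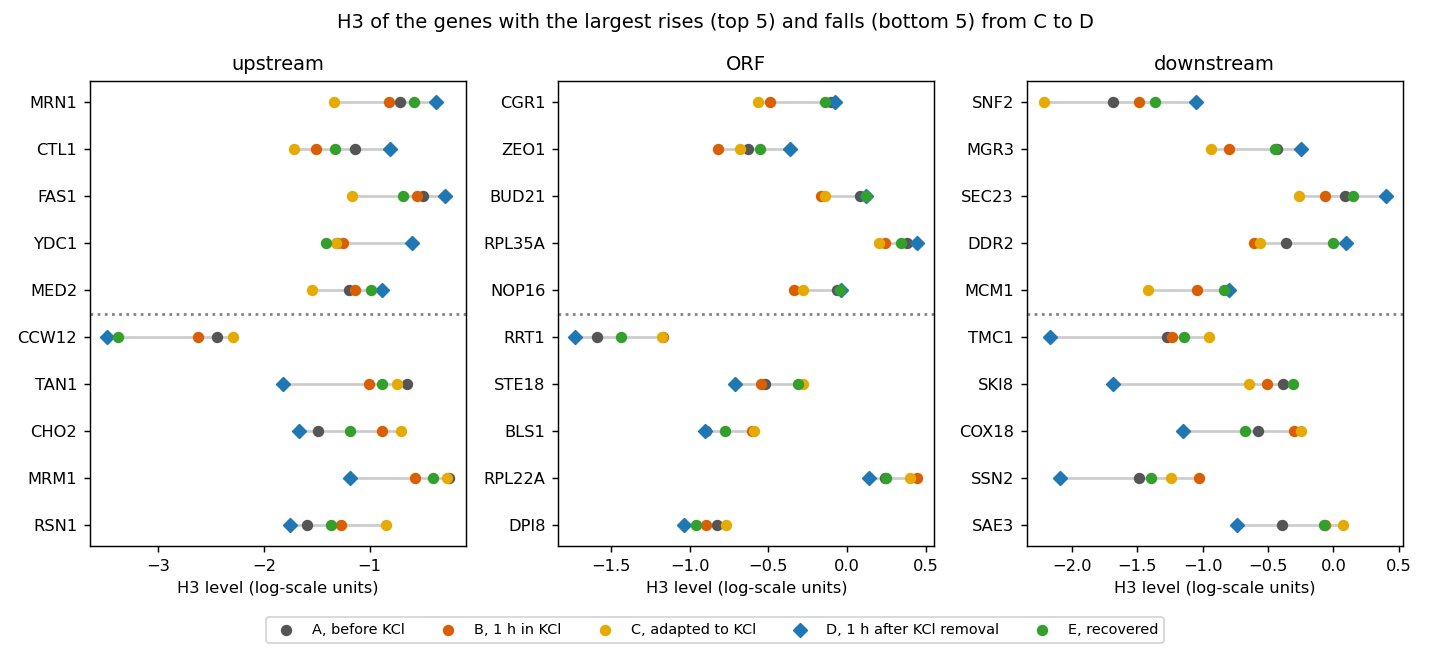
H3 level in log-scale units of the 5 genes with the largest higher (above the dotted line) and the 5 with the largest lower values in sample D under the conditions in the text, for the upstream window, the ORF and the downstream window. Each point is 1 sample and the grey line spans samples A to E; sample D (blue diamond) is at an end of every line because the conditions asked for it, and at CCW12 samples D and E, at -3.48 and -3.38, both lie below the other 3.

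Within ORFs, CGR1 had the largest gain of H3 in sample D under these conditions. CGR1, which acts in rRNA processing, had ORF levels of -0.106, -0.493, -0.565, -0.0762 and -0.139 in samples A to E. All 20 bins were higher in sample D than in sample C, and the difference was 0.489 by the mean and 0.245 by the median of the bins, with the last bin at 3.95. BUD21, a component of the small subunit processome, had 0.0781, -0.164, -0.141, 0.118 and 0.117, a difference of 0.260. NOP16, which acts in the assembly of the large ribosomal subunit, had -0.0672, -0.335, -0.278, -0.0369 and -0.0443, a difference of 0.241. In these 3 genes samples B and C lay below samples A, D and E. RPL35A, a ribosomal protein gene, showed the same order at 0.380, 0.240, 0.199, 0.444 and 0.344, but its difference of 0.245 was 0.102 by the median of the bins and it has a near-identical paralog that an array may not tell apart. ZEO1, a membrane protein gene tied to cell integrity signalling, had -0.633, -0.817, -0.681, -0.363 and -0.553, a difference of 0.317. Of these 5, CGR1 and ZEO1 passed 0.3.

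Under the same conditions, the 5 ORFs with the largest loss of H3 in sample D belong to genes under 1 kb. RRT1 had -1.59, -1.17, -1.18, -1.73 and -1.44 in samples A to E, a difference of -0.546, with samples B and C the highest. STE18, the gamma subunit gene of the pheromone-coupled G protein, had -0.523, -0.547, -0.284, -0.714 and -0.313, and all 20 bins were lower in sample D, by -0.430 on average. In STE18 sample C stood high beside sample E, and samples A and B lay in between. RPL22A, a ribosomal protein gene, had 0.241, 0.444, 0.398, 0.136 and 0.246, a difference of -0.262 with samples B and C above the rest. BLS1, a subunit gene of the BLOC-1 complex of endosomes, differed by -0.309 and DPI8 by -0.262, each with all 20 bins lower. Of these 5, RRT1, STE18 and BLS1 passed 0.3.

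Downstream, the largest gain of H3 lay past SNF2, which encodes the ATPase of the SWI/SNF remodelling complex. The levels were -1.69, -1.48, -2.21, -1.05 and -1.37 in samples A to E, with sample C lowest and sample D highest. The difference was 1.17 by the mean of the bins and 1.22 by their median, while the SNF2 ORF differed by -0.0142. MCM1, a gene for a MADS-box transcription factor, had -0.808, -1.04, -1.42, -0.801 and -0.836, a difference of 0.619 that brought sample D to the level of samples A and E. Its upstream window went the other way, at -1.503, -1.37, -0.973, -1.66 and -2.41. DDR2, a gene induced by many stresses, had -0.364, -0.609, -0.563, 0.0961 and -0.00562 downstream, a difference of 0.659 with samples B and C lowest, larger in the 6 intergenic bins, at 0.947, than in the 3 inside AIM39, at 0.0817. MGR3, a subunit gene of a mitochondrial protease complex, differed by 0.690 and SEC23, a COPII coat gene, by 0.662, each largely through 1 bin.

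Under the same conditions, the largest downstream losses lay past genes of varied function. TMC1 had -1.27, -1.23, -0.953, -2.17 and -1.14 in samples A to E, and bin 8 alone differed by -5.59. SKI8, a gene of the Ski complex of mRNA decay, had -0.386, -0.504, -0.645, -1.69 and -0.307, and bin 8 differed by -3.85. In both genes sample D stood alone below 4 samples that lay close together. SSN2, a Mediator subunit gene, differed by -0.847 and SAE3, a meiotic recombination gene, by -0.806, with single bins at -3.99 and -4.92. COX18, which acts in the assembly of cytochrome oxidase, had -0.577, -0.299, -0.246, -1.15 and -0.676, all 9 bins were lower in sample D, and samples B and C were the 2 highest.

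The overlap of convergent windows can be seen where both genes were past 0.3. TRP3, a tryptophan synthesis gene, and its convergent neighbour SAC1, a phosphoinositide phosphatase gene, differed downstream by -1.17 and -1.10, with 1 bin in each at -4.86 and -4.11. TLD1 and PMP3, the latter a small plasma membrane protein gene, differed by 0.844 and 0.998. The TLD1 window had -0.559, -1.19, -1.51, -0.665 and -1.41 in samples A to E, so that samples A and D were high and samples B, C and E low. These pairs, named after their values were seen, are 1 locus each and not 2 observations.

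Genes that stress induces had somewhat more H3 in sample D than in sample C. A list of 69 general stress and osmostress genes had a median ORF difference of 0.0348, against -0.00288 over all ORFs, and 54 of the 69 were higher (78.26%, against 47.99% of all). No ORF of the list passed 0.3 in either direction, near the background of 0.449% higher and 0.704% lower of all ORFs. Its highest member lay at 0.168, outside the middle 80% of ORFs. Upstream the median was 0.0193, with 40 of 69 higher (57.97%, against 43.73% of all ORFs), 3 past 0.3 and 1 past -0.3, against 2.68% and 4.48% of all. Downstream it was 0.0333, with 9 past 0.3 and 4 past -0.3, against 4.57% and 5.15% of all, so that the count below -0.3 was near the background. From sample A to sample E, both without KCl, the medians of the list were 0.0402 in the ORF, 0.0454 upstream and 0.101 downstream. Over all ORFs those medians were 0.0278, 0.0525 and 0.0429. The C to D medians of the list were thus smaller in size than its medians between samples without KCl. Set against each gene's own mean over the 5 samples, the upstream median of the list was 0.0673, -0.105, -0.0180, 0.0225 and 0.0940 in samples A to E. It was thus lowest 1 h after KCl was added, was partly regained by adaptation and was higher again after KCl was removed.

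The separation of the samples by medium was frequent in this list. Samples A, D and E, all without KCl, lay above samples B and C in 31 of the 69 ORFs (44.93%, against 17.1% of all ORFs), in 29 upstream windows (42.03%, against 11.4%) and in 24 downstream windows (34.78%, against 15.5%). The opposite order was seen in 2 ORFs, 2 upstream and 5 downstream windows of the list, against 18.9%, 15.9% and 12.2% of all ORFs. The order of the samples includes the C to D difference itself.

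An example was the upstream window of HSP12, a small heat shock protein gene that is a standard reporter of the osmotic and general stress response. Its levels were -0.334, -1.49, -0.793, -0.386 and -0.362 in samples A to E. Samples A, D and E lay close together and well above samples B and C, and all 9 bins were higher in sample D, by 0.406 on average and 0.258 by the median of the bins, under the limit of 0.3. GAC1, which encodes a phosphatase subunit that promotes glycogen synthesis, had -1.36, -2.13, -1.83, -1.13 and -0.866, with all 9 bins higher by 0.701 on average, and its downstream window differed by 0.689. FMP16 had -0.225, -0.532, -0.432, -0.0827 and -0.188 upstream, a difference of 0.350. The exception past 0.3 was GLG2, a glycogenin gene, with -1.70, -0.691, -0.350, -0.896 and -0.707, where all 9 bins were lower in sample D.

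**Figure D4:**
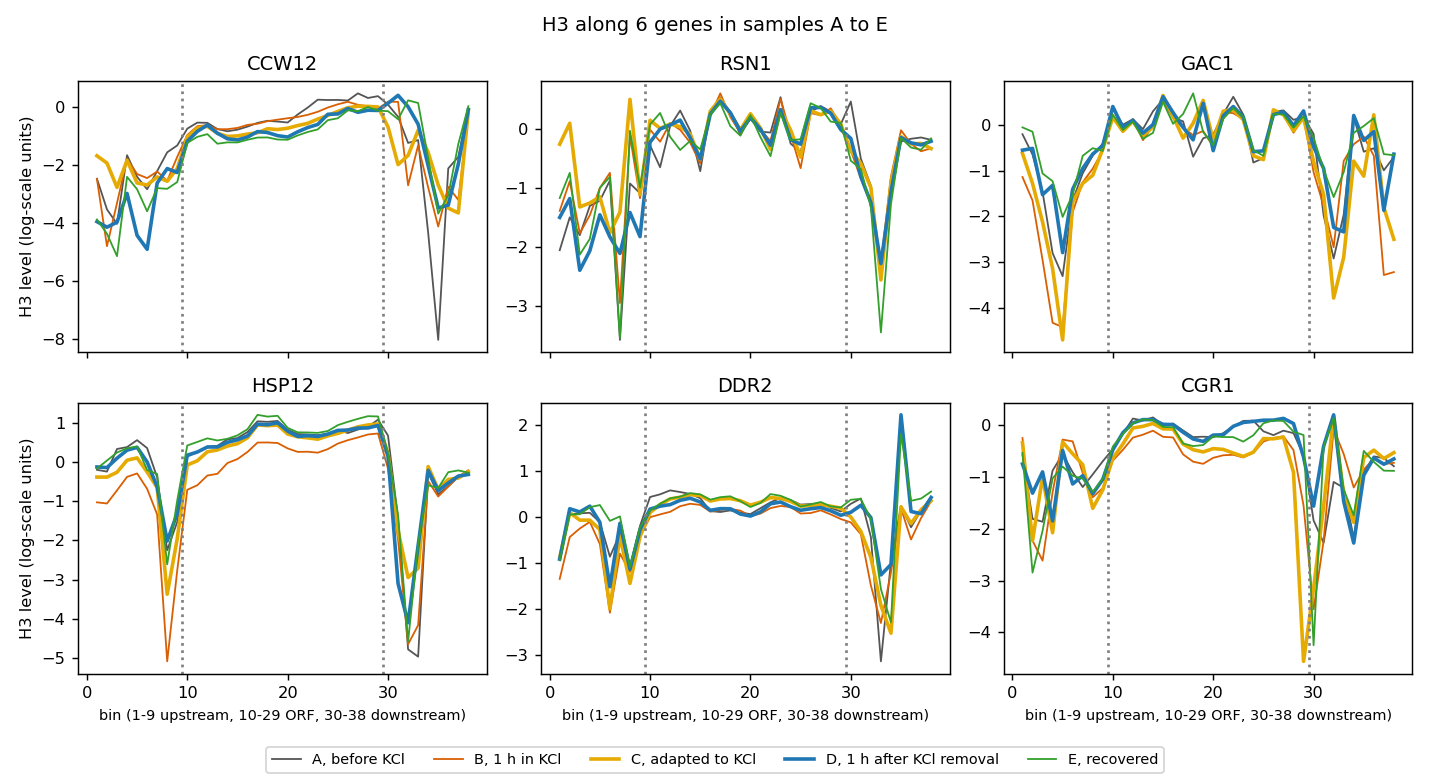
H3 level in log-scale units along 6 genes in samples A to E, with 9 upstream, 20 ORF and 9 downstream bins separated by dotted lines. In HSP12 and GAC1 the blue line of sample D lies above the yellow line of sample C in all 9 upstream bins, in RSN1 and in 8 of 9 bins of CCW12 it lies below, and in CGR1 and downstream of DDR2 the gap is widest in single bins (3.95 and 2.00).

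In some ORFs of the list the difference was small but ran along the gene. In others the bins were split, as in RIM4 and ATH1 with 10 of 20 bins higher in sample D. TPS2, trehalose-6-phosphate phosphatase, had 0.0604, -0.208, -0.0140, 0.154 and 0.194 in samples A to E, with 17 of 20 bins higher in sample D by 0.168 on average. SIP18, a hydrophilin gene, had 0.156, -0.0334, 0.0116, 0.148 and 0.180, a difference of 0.136. HSP42, a small heat shock protein gene, had 0.227, 0.0471, 0.140, 0.273 and 0.267, a difference of 0.133. In these genes samples A, D and E lay above samples B and C, and sample B was the lowest. DDR2 and FMP16 were at the other end, with ORF differences of -0.127 and -0.0655, so that mean H3 of these 2 genes was lower in the ORF and higher in a flank. By the median of the bins the ORF differences were -0.119 and -0.0141, and in FMP16 9 of 20 bins were higher in sample D.

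Genes of glycerol and ion balance, the direct answer to salt, gave a mixed picture. GPD1, the glycerol-3-phosphate dehydrogenase that makes glycerol under osmotic stress, had ORF levels of 0.172, -0.0173, 0.0839, 0.198 and 0.183 in samples A to E, with 19 of 20 bins higher in sample D by 0.114 on average. Its downstream window had -0.442, -1.02, -0.835, -0.363 and -0.435, a difference of 0.472 that put sample D with samples A and E. STL1, the glycerol symporter gene, differed by 0.280 upstream and 0.134 in the ORF, the latter 0.0257 by the median of the bins. Over the 18 glycerol and water channel genes the ORF median was 0.0128, with 11 higher (61.11%, against 47.99% of all ORFs). No ORF of these genes was past 0.3 in either direction, against 0.449% and 0.704% of all ORFs, so that this was near the background. Upstream 1 was past 0.3 and 1 past -0.3, against 2.68% and 4.48% of all. Downstream 3 were past 0.3 and 1 past -0.3, against 4.57% and 5.15%. ENA1, the sodium exporting ATPase, had -1.13, -1.68, -1.19, -0.706 and -0.889 upstream, a difference of 0.489 that was 0.175 by the median of the bins. PMA1, the plasma membrane proton pump, had -2.46, -2.63, -2.53, -3.01 and -3.11, a difference of -0.476 with samples D and E apart from the other 3. The PMA1 window held opposite signs, -0.925 in its intergenic bins and 1.10 in the 2 bins inside YGL007C-A. The 31 HOG pathway genes had medians of -0.0428 upstream and -0.0197 in the ORF. None was past 0.3 in these regions, and 1 upstream window, that of MCM1, was past -0.3. Of all ORFs 2.68% and 4.48% passed these limits upstream and 0.449% and 0.704% in the ORF, so that these counts were near the background. The upstream median turned to 0.0195 by the median of the bins.

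Hexose transporter genes also had more H3 in the ORF. Of the 16, 14 were higher in sample D (87.5%, against 47.99% of all ORFs), with a median of 0.0331, and 10 had samples A, D and E above samples B and C (62.5%, against 17.1% of all ORFs). HXT1, a low-affinity transporter gene, had 0.266, -0.0614, -0.0350, 0.164 and 0.201 in samples A to E, a difference of 0.199 with 18 of 20 bins higher. HXT6 had 0.279, -0.00260, 0.0825, 0.248 and 0.230, a difference of 0.166, and its near-identical neighbour HXT7, which an array can hardly tell from it, differed by 0.157. Upstream the list was less uniform, with 11 of 16 higher (68.75%, against 43.73% of all ORFs) and a median of 0.0618. There 1 was past 0.3, HXT6 at 0.947, against 2.68% of all ORFs. The HXT6 window had 5 of 9 bins higher, with bin 3 at 4.378, and differed by 0.695 by the median of the bins. From sample A to sample E the median differences of the list were -0.0307 in the ORF and 0.111 upstream.

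The genes that make the ribosome divided. The 92 ribosome biogenesis genes had slightly more H3 in the ORF in sample D, with a median of 0.0257 and 62 higher (67.39%, against 47.99% of all ORFs), and 29 of them (31.52%, against 17.1%) had samples A, D and E above samples B and C. The 138 cytosolic ribosomal protein genes had less, with a median of -0.0311 and 48 higher (34.78%), and in 51 (36.96%, against 18.9% of all ORFs) samples A, D and E lay below samples B and C. Relative to each gene's mean, the ORF median of the ribosomal protein genes was -0.000902, 0.0665, 0.0271, -0.000492 and -0.0900 in samples A to E. It was highest 1 h after KCl was added and declined from there through samples C and D to sample E. From sample A to sample E the median ORF difference was -0.0843 for the ribosomal protein genes and 0.00218 for the biogenesis genes. The former was larger in size than from C to D and the latter smaller. At the ends of the ribosomal protein list RPL33B differed by -0.301, the only member past 0.3 in size, RPS6A by -0.297, RPS14A by 0.150 and RPL35A by 0.245. A count of 1 in 138 past -0.3 was near the background, which was 0.704% of all ORFs. Most ribosomal protein genes have a near-identical paralog, so that single members are uncertain. From C to D the ribosomal protein genes also had lower H3K18ac in the ORF, with a median of -0.318, and the biogenesis genes one of -0.190, against 0.0221 over all ORFs.

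**Figure D5:**
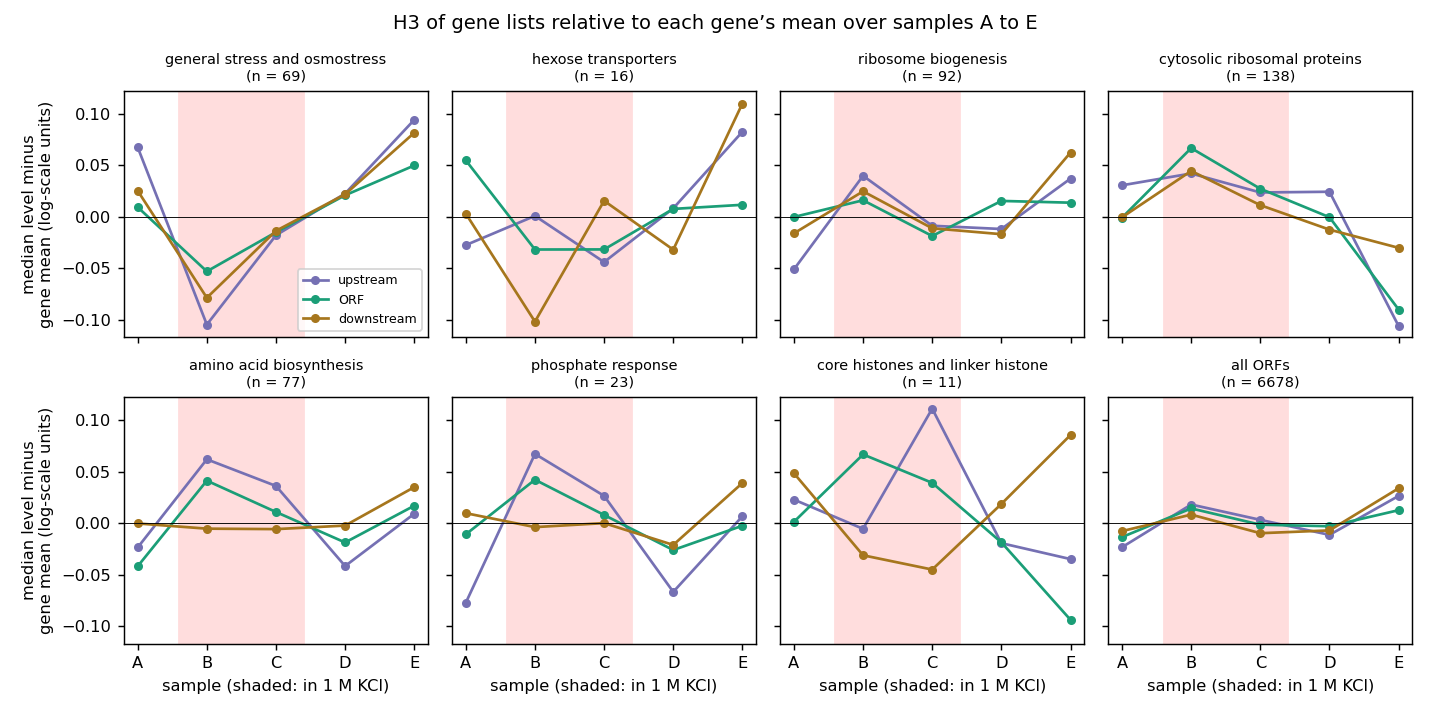
Median H3 of 7 gene lists and of all ORFs in samples A to E, each gene taken relative to its own mean over the 5 samples (log-scale units), with the samples from 1 M KCl shaded. The stress list dips to -0.105 upstream in sample B and lies above 0 in samples A, D and E, the ribosomal protein genes peak at 0.0665 in the ORF in sample B, and the amino acid and phosphate lists are above 0 in samples B and C and below 0 in sample D upstream and in the ORF.

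Amino acid biosynthesis genes had less H3 upstream and in the ORF in sample D. Among the 77 genes the ORF median was -0.0323, with 18 higher (23.38%, against 47.99% of all ORFs), and the upstream median was -0.0692, with 23 higher (29.87%, against 43.73%). Upstream, 5 were past 0.3 and 10 past -0.3, against 2.68% and 4.48% of all ORFs. Downstream the median was 0.00427, with 42 higher (54.55%, against 50.34% of all ORFs). There 7 were past 0.3 and 4 past -0.3, against 4.57% and 5.15% of all, so that the count below -0.3 was near the background. Upstream, 24 (31.17%, against 15.9% of all ORFs) had samples A, D and E below samples B and C. From sample A to sample E, both without KCl, the median differences of the list were 0.0658 in the ORF and 0.0360 upstream. GLN1, glutamine synthetase, had -1.55, -1.48, -1.45, -2.22 and -2.05 upstream in samples A to E, a difference of -0.766 with all 9 bins lower, and samples D and E stood apart from the other 3 as at CCW12 and PMA1. GCN4, the activator of these genes, had -2.62, -2.51, -2.03, -1.34 and -1.65, a difference of 0.686 in the other direction. The counts include HIS3, LEU2 and LYS2, which are deleted in BY4742. Without them, a choice made after seeing the data, the upstream median of the 74 others was -0.0672, with 23 higher, 5 past 0.3 and 9 past -0.3, and the ORF median was -0.0316, with 17 higher.

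Of 23 phosphate response genes, 4 were higher upstream (17.39%, against 43.73% of all ORFs) and 6 in the ORF (26.09%, against 47.99%), with medians of -0.0851 and -0.0344. From sample A to sample E, both without KCl, these medians were 0.0985 and 0.00687. PHO84, the high-affinity phosphate transporter, was lower in the ORF and in both flanks. All 9 bins of each flank lie inside other annotated genes, with YNCM0001W and YML122C in the upstream window and TUB3 and YNCM0001W in the downstream one. The upstream levels of PHO84 were -0.998, -0.820, -1.15, -1.68 and -1.13 and its ORF levels 0.184, 0.175, 0.0945, -0.164 and 0.106 in samples A to E. Sample D was the lowest in both, by -0.530 and -0.259 from sample C, with all 9 upstream bins and 19 of 20 ORF bins lower, whereas the repressible phosphatase gene PHO5 differed by 0.0120 and -0.0170. VTC1, of the polyphosphate-making vacuolar transporter chaperone complex, had -0.345, -0.105, -0.174, -0.394 and -0.526 in the ORF, all 20 bins lower by -0.221 on average, and VTC4 of the same complex was lower by -0.440 upstream.

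Histone genes themselves had less H3 upstream. Of 11 core and linker histone genes 2 were higher (18.18%, against 43.73% of all ORFs) and 9 lower, with a median of -0.174, and 3 were past -0.3 and 1 past 0.3, against 4.48% and 2.68% of all. HTA2, an H2A gene, had -0.934, -1.24, -1.07, -1.44 and -1.20 in samples A to E, HHT2, an H3 gene, had -0.598, -0.602, -0.366, -0.686 and -0.729, and HHF1, an H4 gene, had -0.967, -1.27, -0.826, -1.18 and -1.06. Sample D was lower than sample C in all 3, by -0.373, -0.319 and -0.350, or by -0.207, -0.307 and -0.148 by the median of the bins, which leaves HHT2 alone past 0.3 in size. Only in HTA2 did sample D lie below the 4 other samples. In the ORF 9 of the 11 were lower and 2 higher (18.18%, against 47.99% of all ORFs), with a median of -0.0269. In 6 of them (54.55%, against 18.9% of all ORFs) samples A, D and E lay below samples B and C. From sample A to sample E the median differences of the list were -0.0886 upstream and -0.0736 in the ORF. CSE4, the centromeric H3 variant gene, differed by 0.548 upstream. The histone pairs are divergent and share an upstream region, as HHT2 with HHF2 and HHT1 with HHF1, so that these are fewer loci than genes.

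Upstream medians of several other lists lay below the -0.0168 of all ORFs, of which 43.73% were higher in sample D, 2.68% past 0.3 and 4.48% past -0.3. The 27 genes of glycolysis and fermentation had a median of -0.105, with 11 higher, none past 0.3 and 6 past -0.3, among them PFK1, a phosphofructokinase subunit gene, at -0.601 and PYK2, a pyruvate kinase gene, at -0.504. Their ORF median was 0.0196, with 19 of 27 higher (70.37%, against 47.99% of all ORFs). The 36 mating genes had an upstream median of -0.0819, with 8 higher, none past 0.3 and 3 past -0.3, and the 59 cell wall genes one of -0.0774, with 20 higher, and with 2 past 0.3 and 3 past -0.3, shares near those of all ORFs. The 28 heat shock genes had -0.0472, with 10 higher, 1 past 0.3 and 2 past -0.3. The 51 respiratory genes had -0.0378, with 20 higher, 3 past 0.3 and 2 past -0.3. The 36 proteasome genes had -0.0377, with 10 higher, none past 0.3 and 3 past -0.3, among them PUP2 at -0.698 and lower in all 9 bins. The 30 genes of potassium, sodium and proton transport had a downstream median of 0.131, with 6 past 0.3 and 1 past -0.3, against 4.57% and 5.15% of all ORFs, but this turned to -0.0412 by the median of the bins. The 5 remaining lists, mitochondrial ribosomal proteins, G1/S and cyclin genes, meiosis, ergosterol biosynthesis and the seripauperin and DUP240 families, had medians between -0.0360 and 0.0147 upstream and between -0.0129 and 0.0173 in the ORF. From sample A to sample E the upstream medians were -0.0738 for glycolysis and fermentation, 0.165 for mating and 0.0265 for cell wall genes. They were -0.00253 for heat shock, 0.0406 for respiratory and 0.0116 for proteasome genes.

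The difference on KCl removal was set beside the difference on KCl addition, from sample A to sample B, which uses other files. Across the 6678 ORFs the 2 differences correlated with r = -0.188 upstream, -0.402 in the ORF and -0.174 downstream (rho = -0.255, -0.468 and -0.249). With the difference from sample A to sample E, between cultures without KCl, r was -0.0297, -0.0642 and -0.0123. Of the 30 ORFs that were higher in sample D by 0.3, 9 (30%) had gained H3 when KCl was added, against 60.68% of all ORFs, and their median levels were -0.334, -0.507, -0.727, -0.376 and -0.392 in samples A to E. For the 299 upstream windows that were lower the levels were -0.956, -0.833, -0.761, -1.18 and -0.839, and 204 of them (68.23%, against 61.02% of all) had gained H3 at that step. Samples A and E thus lay between C and D, nearer to sample C, in that group.

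H3 differences went little with those of the other precipitated proteins. Across ORFs, the C to D difference of H3 in the ORF correlated with that of H3K18ac with r = -0.0341, of H4K16ac with r = 0.126 and of Gcn5 with r = -0.103. Upstream, the values were -0.0125, 0.0937 and -0.0251. The regions of a gene also differed largely on their own, with r = 0.119 between upstream window and ORF, 0.111 between ORF and downstream window and 0.0236 between the flanks. The 261 genes within 20 kb of a chromosome end had medians of 0.0181 upstream and 0.0248 downstream, with 59.77% and 65.13% higher in sample D, against -0.0220 and -0.000422 for genes further in. Genes with a divergent upstream neighbour had an upstream median of -0.0270 and those with a tandem one of -0.0128.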

How the data were processed

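H3 was measured by ChIP-chip on Affymetrix S. cerevisiae Tiling 1.0R arrays in samples A to E, 1 file each. The authors computed the signal with Affymetrix Tiling Analysis Software, normalized the 5 samples to the same median and averaged it in bins. What was deposited is a score per bin, on a log scale and in arbitrary units. The log base and the genome build are not given in the sources used here. Arrays have no read depth, and precision is limited by their number.

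Each file was centred on its median over all bins, and bins were averaged per region. Of the ORFs, 6003 were matched to RefSeq assembly R64, used for names, lengths and neighbours. The length of the flanking windows was found by matching the mirrored profiles of neighbouring genes. Named genes were the 5 with the largest difference per region and direction under the conditions in the report, and up to 4 members of each list, the highest and lowest. Other genes, among them further members of the stress, glycerol, histone, hexose transporter and phosphate lists, were named after their values were seen. The genes and the 21 lists were chosen with earlier results of these data known. Alternatives were the centring, mean or median over bins, the bins and ORFs used and the size limit. Calculations were tested on simulated data and made with Python 3.11.15, pandas 2.3.3, numpy 2.4.6 and scipy 1.17.1, and figures with matplotlib 3.10.9. No sequence was used.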

Additional observations from a re-analysis of the deposited data

How the results depend on the processing

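Medians and SDs were judged against their spread over the 10 pairs of H3 samples, and correlations against a fixed 0.1. They moved by less in 71 recomputations and by more in 5. Gene list medians, judged against their own spread over the pairs, moved by less in 527 and by more in 19. Bins were decisive for the spread and the counts. With the central ORF bins and nearest flank bins alone, the SD was 0.219 upstream, 0.1194 in the ORF and 0.2719 downstream, with 321 upstream windows, 55 ORFs and 588 downstream windows higher and 75 ORFs and 555 downstream windows lower. With flank bins outside other genes alone, the SDs were 0.2034 upstream and 0.2952 downstream, with 603 downstream windows higher and 525 lower. Without the bin of largest difference, 59 upstream windows, 18 ORFs and 97 downstream windows were higher, and 112 upstream and 126 downstream windows lower. Both of these last settings were added after seeing the data. A size of 0.2 gave 393, 105 and 606 higher and 661, 139 and 694 lower in the 3 regions, and a size of 0.5 gave 38, 9 and 85 higher and 83, 17 and 95 lower. Without overlapping ORFs 18 ORFs were higher and 29 lower, and without ORFs with a midway bin 12 and 27. The median over all ORFs in the ORF region, -0.00288, turned to 0.00134 with the values as deposited and to 0.00331 with quantile normalization. Of the list medians that moved by more, 9 kept their sign, and of those that moved by less, 490.

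There was 1 file per sample, so that none was left out and no sample error is known. Setting each file's median to 0 removes any gain or loss of H3 over the whole genome, so that differences are relative to the median bin. It also presumes similar noise in both files, which was not tested. The median difference over all ORFs had a root mean square of 0.0295 upstream, 0.0163 in the ORF and 0.0257 downstream over the 10 pairs, and list medians of that size carry this limit. A planned description of promoter motifs was not run. No paired analysis was possible because each sample has 1 file.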
